A study of Mus musculus with 6 samples.

Results

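The genes described here are 9 markers of the glial lineages of the brain: Gfap, Aqp4, Aldh1l1 and S100b of astrocytes, Olig1, Olig2 and Pdgfra of the oligodendrocyte lineage, and Mbp and Cnp of myelin. They were named in a list and not picked by a rule on their values, but the list was chosen with earlier results of these data known. They are 9 of 21887 protein-coding genes of the mouse assembly GRCm38. For each, all deposited peaks that touched the gene or the 5 kb on either side of it were read. At Gfap, Aqp4 and S100b no peak of either histone mark was called after water or after crotonate. Olig1, Olig2 and Cnp carried H3K4me3 and no H3K27me3 in both conditions. Aldh1l1 carried weak H3K4me3 and Pdgfra carried both marks in both conditions, and at Mbp an H3K4me3 peak was called after crotonate only.

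The cells were embryonic neural stem and progenitor cells (eNSPCs) from the forebrain of E13.5 mice, expanded in culture with EGF and FGF. They received water, as the control, or 10 mM crotonate for 24 h, and CUT&Tag was then made with antibodies to H3K4me3 or H3K27me3, or with normal rabbit IgG. In CUT&Tag an antibody brings a transposase to its target, and the tagged DNA beside it is sequenced. There was 1 library per antibody and treatment, so no difference below has a replicate check and no test was run. The 2 IgG libraries were not analysed here.

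H3K4me3 lies at promoters that are active or ready for use, and H3K27me3 is laid down by Polycomb complexes over developmental genes kept silent. Promoters that hold both are called bivalent. Progenitors of the forebrain make neurons first and glia later: Olig1 and Olig2 set up the oligodendrocyte lineage, Pdgfra marks its precursors, Mbp and Cnp are used when myelin is made, and Gfap, Aqp4, Aldh1l1 and S100b are used by astrocytes.

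The lists do not state fragment totals. Estimated from the step between pileup values and from the lowest local background, the H3K4me3 library after crotonate had 1.16 times the depth of that after water, the H3K27me3 library 0.811 times, and the background 1.80 times. The lists held 13221 and 16007 peaks of H3K4me3 and 7643 and 15879 of H3K27me3 after water and crotonate. A peak missing from a list may therefore lie just under the threshold there, and widths and counts depend on these depths. Marker genes of the labelled cell type (Nes, Sox2, Vim, Fabp7, Hes5 and Pax6) had H3K4me3 in 6 of 6 cases in both conditions. Of 5 neuronal markers 4 had it in both conditions. Of 4 microglial markers 1 had it in both, of 3 vessel markers 0, and of 3 fibroblast markers 0 after water and 1 after crotonate. Over all genes the shares were 59.1% and 63.1%. H3K27me3 was in both conditions at 0 of 6 progenitor, 2 of 5 neuronal, 0 of 4 microglial and 1 of 3 fibroblast markers. Of 3 vessel markers 0 had H3K27me3 after water and 1 after crotonate. In bulk chromatin, fewer cells with a mark and less of the mark per cell cannot be told apart.

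Counted over the list, 5 of 9 genes had H3K4me3 after water and 6 of 9 after crotonate, where 59.1% and 63.1% of all protein-coding genes had it in windows drawn the same way. H3K27me3 was found at 1 of 9 in each condition, against 12.2% and 17.2% of all genes. Both marks overlapped at 1 of 9 in each condition, against 4.17% and 7.58%. The share with no peak in any of the 4 lists was 3 of 9, against 31.6% of all genes. All of these shares lay near those of all genes or rested on 1 gene. Of the 4 genes without H3K4me3 after water, 1 was called after crotonate, against 9.91% of all such genes. None of the 5 genes with H3K4me3 lost it, and the loss over all genes was 0.0464%. H3K27me3 was gained at 0 of 8 and lost at 0 of 1, against 6.11% and 3.29%. In 8 of 9 genes the marks called were the same under both treatments. By the shares just given, most of all genes also kept the state of each mark. The combined share over all genes was not counted.

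**Figure D1:**
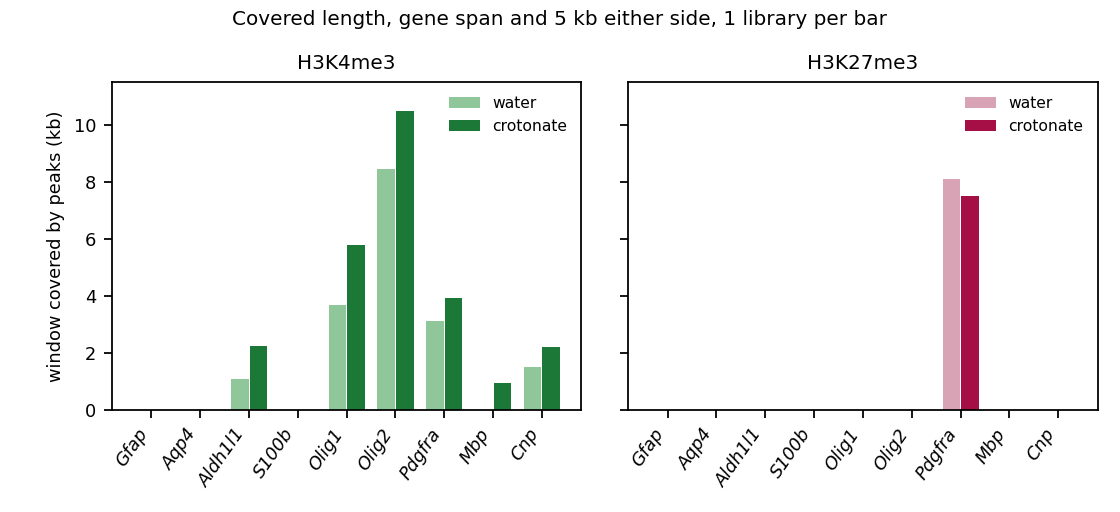
Length of the gene window (gene span and 5 kb either side) covered by peaks, in kb, for the 9 genes, with H3K4me3 on the left and H3K27me3 on the right; each bar is 1 library, pale for water and dark for crotonate. Olig2 has the longest H3K4me3 cover of the 9 (8.44 and 10.5 kb), Gfap, Aqp4 and S100b have none, and Pdgfra alone has H3K27me3 (8.09 and 7.48 kb).

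Where H3K4me3 was called in both lists its covered length was larger after crotonate at 5 of 5 genes, which was also the case at 96.1% of the 12930 protein-coding genes that had it in both. This tally depended on the settings. With lists of equal length the difference turned at Pdgfra, to -1561 bp. Within the gene span alone it was greater at 2 of the 5, Aldh1l1 and Pdgfra, was 0 bp at Olig1 and Olig2, and was -154 bp at Cnp. In the full window the ratio of crotonate to water had a median of 1.46 over the 5, beside a median of 1.29 over the 12930 (quartiles 1.14 and 1.53). The order of the covered lengths ran in both lists from Olig2 through Olig1 and Pdgfra to the shorter Cnp and Aldh1l1. Only the last pair changed places: Cnp had 1512 and Aldh1l1 1065 bp after water, and with crotonate they had 2204 and 2239 bp. Mbp, with 0.929 kb after crotonate, came below all of them. Whether the greater cover comes from depth or from the chromatin was not tested.

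The promoter sequences are shown because the members differ widely in CG dinucleotides, which CpG islands are rich in, and H3K4me3 on the stretch just before the start was at those with more of them. The covered length of the whole window did not follow that order, since Pdgfra, with few CG, had more H3K4me3 cover than Cnp and Aldh1l1. RefSeq promoters of GRCm38.p6 were at hand for 6 of the 9 genes, and not for Aqp4, Olig1 and Mbp. The 250 bases before each annotated start are given 5′ to 3′ on the strand of the gene, with each CG in capitals. They lie at chr11:102897201-102897450 (minus strand) for Gfap, chr10:76253586-76253835 for S100b, chr5:75152001-75152250 for Pdgfra, chr6:90550543-90550792 for Aldh1l1, chr11:100574689-100574938 for Cnp and chr16:91225300-91225549 for Olig2, all plus strand but the first. The promoter start is not always the end of the gene span. At Pdgfra it is 75152251 and the span begins at 75151322, so the whole stretch lies inside the span. At Aldh1l1 and Cnp only the last bases of the stretch do.
Gfap: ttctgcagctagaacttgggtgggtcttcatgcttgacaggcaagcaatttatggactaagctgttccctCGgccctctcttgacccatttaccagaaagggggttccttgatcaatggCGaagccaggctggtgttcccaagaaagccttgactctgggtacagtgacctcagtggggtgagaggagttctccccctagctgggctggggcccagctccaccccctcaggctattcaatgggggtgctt
S100b: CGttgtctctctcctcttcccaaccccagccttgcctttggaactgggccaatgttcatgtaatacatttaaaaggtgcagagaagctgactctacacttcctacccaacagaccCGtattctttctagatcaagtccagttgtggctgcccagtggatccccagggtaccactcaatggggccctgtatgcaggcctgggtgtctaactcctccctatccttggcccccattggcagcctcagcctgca
Pdgfra: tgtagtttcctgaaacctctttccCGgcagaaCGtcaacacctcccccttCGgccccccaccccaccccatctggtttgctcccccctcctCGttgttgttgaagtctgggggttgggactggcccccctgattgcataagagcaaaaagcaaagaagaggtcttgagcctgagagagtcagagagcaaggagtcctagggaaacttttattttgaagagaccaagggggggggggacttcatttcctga
Aldh1l1: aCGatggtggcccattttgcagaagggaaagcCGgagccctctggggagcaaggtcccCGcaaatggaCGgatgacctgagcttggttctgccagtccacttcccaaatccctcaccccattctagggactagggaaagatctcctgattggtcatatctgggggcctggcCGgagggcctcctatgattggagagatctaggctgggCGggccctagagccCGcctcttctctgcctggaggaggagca
Cnp: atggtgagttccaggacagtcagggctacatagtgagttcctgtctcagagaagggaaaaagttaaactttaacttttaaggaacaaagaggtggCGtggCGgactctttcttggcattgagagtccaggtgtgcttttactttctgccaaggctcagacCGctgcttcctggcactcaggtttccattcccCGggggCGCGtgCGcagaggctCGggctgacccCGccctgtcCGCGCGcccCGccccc
Olig2: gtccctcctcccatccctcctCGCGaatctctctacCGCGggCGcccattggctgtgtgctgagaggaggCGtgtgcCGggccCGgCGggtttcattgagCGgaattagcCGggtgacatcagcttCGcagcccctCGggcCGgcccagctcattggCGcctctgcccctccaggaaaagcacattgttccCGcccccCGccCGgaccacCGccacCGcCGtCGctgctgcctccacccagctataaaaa

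The capitals are sparse in the first 3 sequences and dense in the last, where they run through the whole stretch. At Cnp most gather toward the start. The number of CG was 2 at Gfap, 2 at S100b, 4 at Pdgfra, 7 at Aldh1l1, 13 at Cnp and 22 at Olig2, and the median over 21263 promoters of protein-coding genes was 10. H3K4me3 peaks covered the whole stretch at Cnp and Olig2 in both conditions, and at Aldh1l1 after crotonate only. At Gfap, S100b and Pdgfra they overlapped it in neither condition. The Pdgfra stretch lay inside H3K27me3 in both. Of all promoters with 2 to 4 CG, 3.05% had H3K27me3 after water and 4.69% after crotonate. With 20 or more CG the shares were 7.83% and 8.68%. Over all promoters the share with H3K4me3 after water was 7.44% with 2 to 4 CG, 37.96% with 5 to 9, 80.2% with 10 to 19 and 90.8% with 20 or more, so for overlap with this stretch the 6 genes followed the general order. After crotonate the shares were 10.6%, 44.8%, 86.7% and 94.7%. Of short motifs looked for on both strands, TATAAA was in the Olig2 stretch alone, where 11.6% of all promoters held it. TTCNNNGAA, the letters bound by STAT factors, which activate Gfap in astrocytes, was in 0 of the 6, where 6.58% of all held it. A match is a match of letters only, and none says only that the letters are not in this window.

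**Figure D2:**
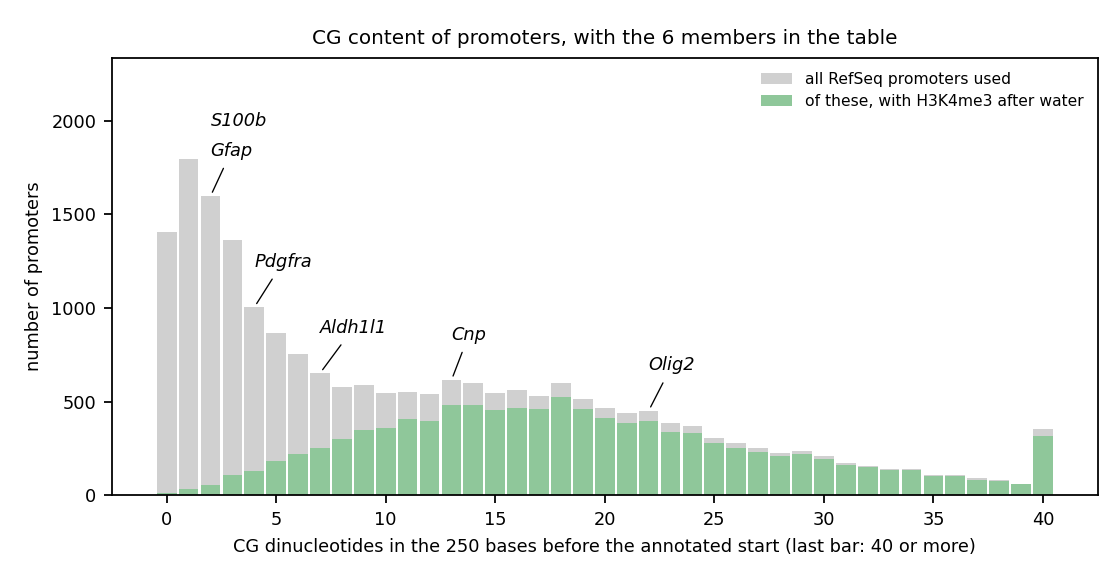
Number of RefSeq promoters of protein-coding genes (vertical axis) by the count of CG in the 250 bases before the start (horizontal axis), in grey for all and in green for those with an H3K4me3 peak after water. The 6 genes are named above the bar that holds them, from Gfap and S100b at 2 CG to Olig2 at 22.

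Of the astrocyte genes, Gfap encodes the intermediate filament of astrocytes and lies on chromosome 11 from 102887336 to 102897200. The nearest H3K4me3 peak, 5.56 kb below it with water and 5.48 kb with crotonate, lay beside the ends of Eftud2 and Ccdc103. The nearest H3K27me3 peaks lay 43.1 and 37.6 kb away on the other side. S100b, which encodes a calcium-binding protein, lies on chromosome 10 from 76253836 to 76261319, and its nearest H3K4me3 peak was that of Prmt2, 15.4 kb away after water and 15.3 kb after crotonate. The nearest H3K27me3 was 298 and 127 kb away. Gfap and S100b were thus without either mark next to neighbours that carried H3K4me3.

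Aqp4, the gene of the water channel of astrocyte endfeet, lies on chromosome 18 from 15389394 to 15410982 in a long stretch without peaks. The nearest H3K4me3 was at Kctd1, 238 kb below after water and 237 kb after crotonate. The nearest H3K27me3 was at Chst9, 348 kb above in both. Of the 9 genes Aqp4 was the farthest from H3K4me3 in both conditions.

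Aldh1l1, the gene of a folate enzyme used widely as an astrocyte marker, was the only astrocyte gene of the 4 with a peak. It lies on chromosome 6 from 90550768 to 90599171. After water an H3K4me3 peak spanned 90550922 to 90551986, from 154 bp inside the gene, with 44 fragments at the summit (the height of the pileup in fragments) and a fold enrichment, the authors' ratio of summit to local background, of 4.14. It was among the weakest of its list, with 4.1% of peaks below it by −log10 q. After crotonate the peak spanned 90550225 to 90552463, over the annotated start, with 58 fragments, a fold enrichment of 6.09 and 22.3% of its list below it. Its covered length of 1.07 and 2.24 kb was above that of 16.3% of the genes with H3K4me3 in the water list and of 45.1% in the crotonate list. With peaks of at least 5-fold enrichment alone, Aldh1l1 was called after crotonate only. The nearest H3K27me3 was 818 kb away in the water list and 287 kb away in the crotonate list.

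Olig1 and Olig2 encode basic helix-loop-helix factors of the oligodendrocyte and motor neuron lineages and lie 41.1 kb apart on chromosome 16, Olig2 from 91225550 to 91228677 and Olig1 from 91269769 to 91271939. At Olig2 an H3K4me3 peak of 6.24 kb covered the gene after water, with 242 fragments at the summit and a fold enrichment of 15.97, and a peak of 2201 bp lay just below it, with 166 fragments. After crotonate both lay in 1 peak of 9.86 kb with 223 fragments at the summit and a fold enrichment of 18.1. The summit was at base 91225741 in both lists, 191 bp inside the gene. The water peak was longer than 99.8% of its list and the crotonate peak than 99.9%. By covered length Olig2 stood above 99.8% of the genes with H3K4me3 after water and 99.6% after crotonate.

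At Olig1 the main H3K4me3 peak was 3.34 kb long with water and 4.98 kb long with crotonate, with 233 and 232 fragments at the summit and fold enrichments of 15.4 and 18.9. Its summit, at base 91269949, was also the same in both lists. A smaller peak lay from 3735 to 3418 bp below the gene after water, with 65 fragments, and from 3945 to 3137 bp below it after crotonate, with 74. Both genes were covered from end to end in both conditions, so the greater cover after crotonate, 10.5 against 8.44 kb at Olig2 and 5.79 against 3.66 kb at Olig1, lay in the flanks.

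From 5 kb below Olig2 to 5 kb above Olig1, H3K4me3 covered 12.1 of 56.4 kb in 4 peaks after water and 17.5 kb in 5 peaks after crotonate. Weak peaks of 0.603 and 1.26 kb between the genes were in the crotonate list only, with fold enrichments of 3.80 and 2.48. Neither passed when the crotonate peaks were scored at the background depth of water. The peak of 0.603 kb is part of the cover of 10.5 kb given for Olig2. Without it, in that setting, the difference at Olig2 was 1420 bp in place of 2023 bp. H3K27me3 covered 0 bp in both lists, and the nearest peak of it lay 1208 kb above Olig1 after water and 1054 kb after crotonate.

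**Figure D3:**
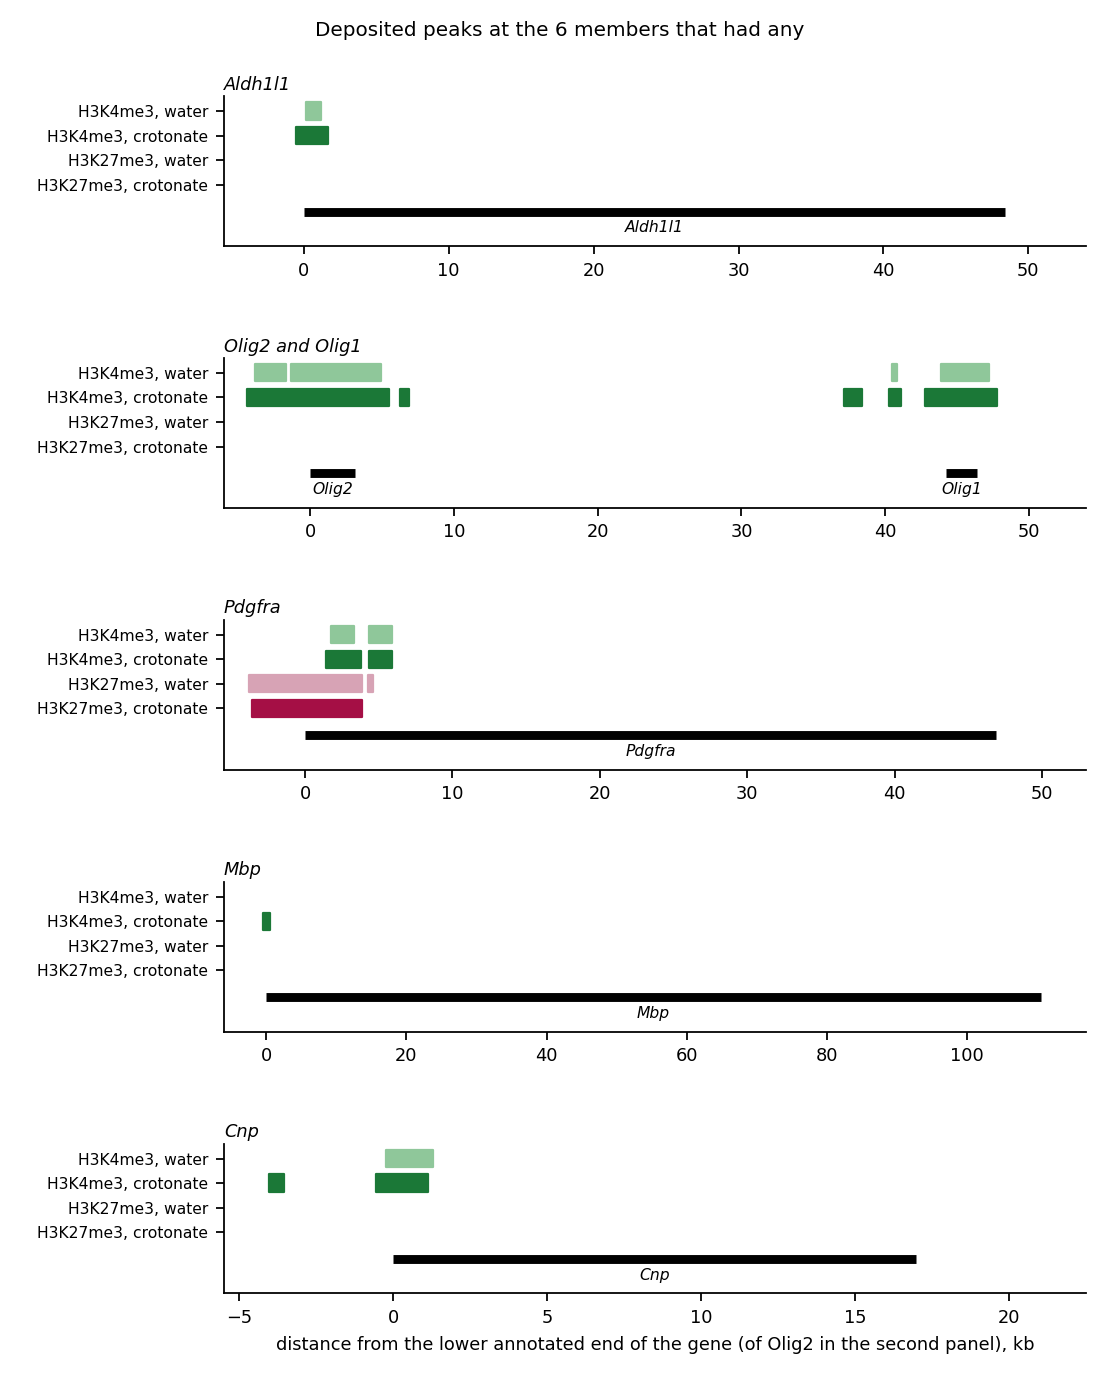
Peaks of the 4 lists at the 6 genes that had any, as bars along the distance in kb from the lower annotated end of the gene; green is H3K4me3, red is H3K27me3, pale is water, dark is crotonate, and the black line is the gene. H3K4me3 covers Olig2 and Olig1 from end to end, the H3K27me3 domain of Pdgfra covers its start in both conditions, and the Mbp peak is in the crotonate row only.

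Pdgfra encodes the PDGF receptor alpha, through which PDGF keeps oligodendrocyte precursors dividing. It lies on chromosome 5 from 75151322 to 75198206 and was the only member with H3K27me3. The water domain of 7.72 kb ran from 75147491 to 75155213 and the crotonate domain of 7.48 kb from 75147734 to 75155215, both over the annotated start and with nearly the same inner edge. The summit held 107 fragments with a fold enrichment of 18.8 after water and 41 with 12.7 after crotonate. The H3K27me3 library after crotonate had an estimated 0.811 times the depth of that after water. Whether depth accounts for the difference in fragments was not tested. By −log10 q, 89.5% of the water list and 91.0% of the crotonate list were weaker than these domains. A second H3K27me3 peak, weak at 2.76-fold and 0.365 kb long, was in the water list only. H3K27me3 thus covered 8.09 kb with water and 7.48 kb with crotonate, a ratio of 0.925. Over the 2588 genes with the mark in both lists the median ratio was 1.38, and cover was greater after crotonate at 83.5% of them.

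H3K4me3 at Pdgfra lay in 2 peaks, neither of them on the annotated start. The stronger one lay inside the gene, from 75155666 to 75157220 with water and from 75155677 to 75157239 with crotonate, with 143 and 180 fragments at the summit and fold enrichments of 12.4 and 16.7. It began 452 bp beyond the edge of the H3K27me3 domain after water and 461 bp beyond it after crotonate. The weaker peak, of 1.57 kb with 20 fragments after water and 2.37 kb with 27 fragments after crotonate, lay wholly inside the domain. The overlap of the marks rested on this weak peak and, after water, on 265 bp of the weak H3K27me3 peak. With peaks of at least 5-fold enrichment no overlap was left after water, and with lists of equal length none was left after crotonate. The weaker H3K4me3 peak was then missing from the crotonate list, so that H3K4me3 cover, 3.12 kb with water and 3.93 kb with crotonate, was the smaller after crotonate in that setting, with a difference of -1561 bp.

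Of the myelin genes, Mbp encodes myelin basic protein and, from its longest unit, the Golli proteins. It lies on chromosome 18 from 82475091 to 82585637. After water the nearest H3K4me3 peak was at Zfp236, 106 kb away. After crotonate a peak of 0.929 kb spanned 82474709 to 82475637, over the lower annotated end, with its summit 10 bp inside the gene, 50 fragments there and a fold enrichment of 11.4. This was a modest peak of its list, with 28.0% weaker by −log10 q. No other peak was called in the 110.5 kb of the gene in any list. The peak thus lay at the end of the longest unit. Starts of the shorter units were not at hand, so it is not assigned to the promoter of myelin basic protein. It kept a −log10 p of 12.7 when scored at the background depth of water, where the weakest deposited peak had 3.44, and it was in the crotonate list in all alternatives but that of a −log10 q at or above the water median. The nearest H3K27me3 peaks lay 67.1 and 65.6 kb below, at Galr1. Since there was 1 library per condition, a difference between the treatments and one between libraries cannot be told apart.

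Cnp, which encodes the myelin enzyme CNPase, lies on chromosome 11 from 100574909 to 100591875. It carried a sharp H3K4me3 peak over its start, of 1.51 kb with 160 fragments at the summit and a fold enrichment of 20.9 after water, and of 1.71 kb with 156 fragments and 24.9 after crotonate. These were the highest fold enrichments among the members in both lists, and the lengths were near the middle of the lists, with 50.2% and 50.0% of peaks shorter. After crotonate a peak was called from 4053 to 3556 bp below the lower annotated end, with 28 fragments and a fold enrichment of 7.23. This peak lay inside the neighbouring gene Ttc25, and position does not assign it to either gene. It made up most of the difference in cover, 2204 against 1512 bp. Within the gene itself the cover after crotonate was 154 bp less. The nearest H3K27me3 lay 57.6 and 46.4 kb away.

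In all, the 9 windows held 8 H3K4me3 peaks after water and 10 after crotonate, and 2 and 1 of H3K27me3. Of the H3K4me3 peaks after crotonate 3 overlapped no peak of the water list, at Mbp, above Olig2 and below Cnp, and 2 of these 3 passed at the background depth of water. No member peak of H3K4me3 after water was without a counterpart after crotonate. The share of peaks without a counterpart over the whole lists was not counted, so these counts are not a trait of the 9 windows. The crotonate list was the longer, with 16007 peaks against 13221. Loss of H3K4me3 was rare over all genes as well (0.0464%).

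Other genes of the same lineages and their signals were read from 3 lists of 64 genes, none of them members. Of 20 astrocyte lineage genes, among them the gliogenic factors Sox9, Nfia and Nfib, 17 had H3K4me3 after water and 18 after crotonate, and 3 and 4 had H3K27me3. Over all genes H3K4me3 was at 59.1% and 63.1%, and H3K27me3 at 12.2% and 17.2%. Hopx, the gene of a homeodomain protein, gained H3K27me3 over 0.575 kb, at 5.72-fold. It was 1 of 17 genes without this mark after water (5.88%, against 6.11% of all such genes). The astrocyte lineage genes thus had H3K4me3 at 85.0% and 90.0%, while 1 of the 4 astrocyte members had it. That list also holds Vim and Fabp7, used above as markers of the labelled progenitors. It is therefore not a list of genes of astrocytes alone, and the contrast is not one between like sets.

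Of 20 oligodendrocyte lineage genes 7 had H3K4me3 after water and 8 after crotonate, and 9 had no peak of either mark in any list. Cldn11, a myelin tight junction gene, gained H3K4me3, in a peak of 0.447 kb at 5.81-fold. It was 1 of 13 genes without this mark after water (7.69%, against 9.91% of all such genes). H3K27me3 was at 3 after water and 7 after crotonate. The 4 gains, of 17 genes without it after water (23.5%, against 6.11% of all genes), included Myrf, Nkx2-2 and Sox10. Myrf, a factor that drives myelin genes, gained H3K27me3 in peaks of which the strongest measured 1.04 kb at 7.01-fold. Nkx2-2 and Sox10, factors of oligodendrocyte differentiation, had peaks of 737 and 1298 bp at 3.90-fold and 4.14-fold, which were lost when scored at the background depth of water. The gain at Myrf was kept there and with lists of equal length. At Mbp and Cnp of the members no H3K27me3 was gained.

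Of 24 genes of gliogenic signalling (the LIF and CNTF receptors with JAK and STAT, BMP, Notch, PDGF and hedgehog genes) 21 had H3K4me3 after water and 22 after crotonate, and 6 had H3K27me3 in both. Cntfr, the gene of the CNTF receptor, gained H3K4me3 in a peak of 0.511 kb at 6.29-fold. It was 1 of only 3 genes without this mark after water, where 9.91% of all such genes gained it. With lists of equal length the H3K4me3 gains at Cldn11 and Cntfr were not called, while that at Mbp was.

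**Figure D4:**
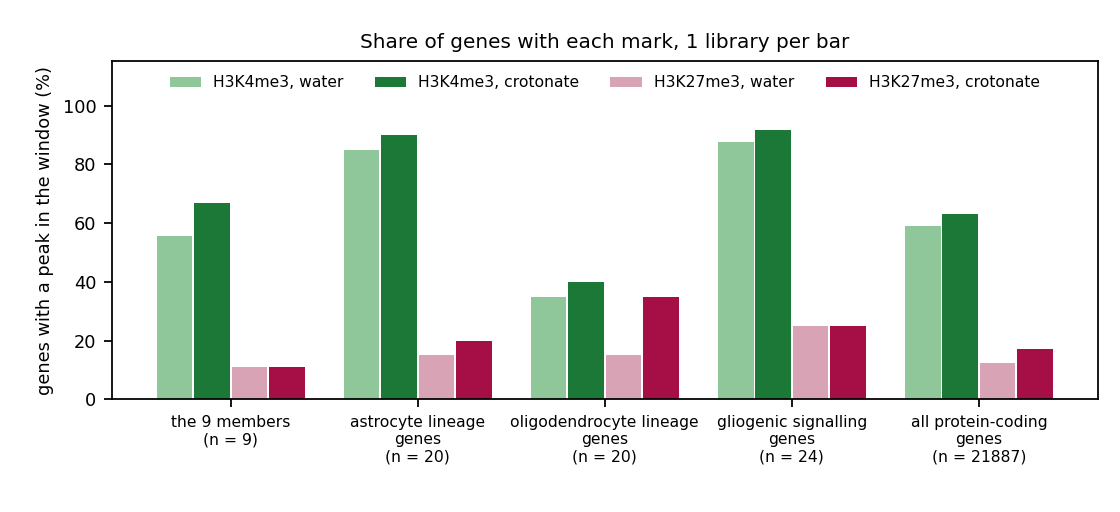
Share of genes with a peak in the window, in percent, for the 9 members, the 3 lists of related genes and all protein-coding genes; each bar is 1 library, green for H3K4me3 and red for H3K27me3, pale for water and dark for crotonate. H3K4me3 after water is at 85.0% of the astrocyte lineage genes, 35.0% of the oligodendrocyte lineage genes and 59.1% of all genes.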

How the data were processed

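CUT&Tag peak lists of 4 libraries were used, 1 per mark and treatment. Per the submitters' processing notes, the tools were MACS2 2.2.7.1, Picard 2.22.0, SAMtools 1.10 and Bowtie2 2.4.1, on build GRCm38. Settings, how duplicates were treated and which library was the background were not given in the sources used here. Per the file headers, each peak has a start, end and summit, a pileup, which is a coverage signal scaled by the authors' caller, a fold enrichment, which is a ratio of summit to local background, and −log10 of p and q. The fold was read as having 1 added to both terms, which the headers do not state; with it, −log10 p recomputed to within 1% for 99.49% to 99.99% of the peaks in the lists. These values are the authors' own and describe peaks within 1 list, apart from alternatives with a common threshold.

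All pileups were whole multiples of 1 step per list (100% within 0.006), so pileup divided by the step gives the fragments at the summit, at the depth of that library. Depth was estimated from the steps and the lowest local background per bp of the shortest peak, taking that peak to be as long as a fragment, which was not tested. Gene spans on chromosomes 1 to 19, X and Y came from RefSeq GRCm38.p6. That table holds no exons, so exon and intron are not given. A gene had a mark where a peak overlapped the span or 5 kb either side by at least 1 bp, gained it when called after crotonate only and lost it when called after water only. Both marks needed peaks that overlap each other inside the window. For matched background depth, pileup and background of crotonate peaks were divided by the depth ratio, and peaks at or above the weakest water −log10 p were kept, with their deposited edges. The code was tested on windows with known overlaps. Python 3.11.15, numpy 2.4.6, pandas 2.3.3, scipy 1.17.1 and matplotlib 3.10.9 were used. The members, lists and alternatives were chosen with earlier results of these data known. All 9 members are named, with up to 4 genes per list, mark and direction that gained or lost a mark; some genes that this rule names are not reported here.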

Additional observations from a re-analysis of the deposited data

How the results depend on the processing

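With 1 library per group there is no replicate to leave out. No paired analysis was possible because each group has 1 library and no test was run. Under 9 alternatives for the window, the threshold, the depth and the overlap with the window, 84 of 90 counts of members stayed within 1.5 times the value reported. Members with both marks overlapping numbered 0 after crotonate with lists of equal length, 0 after water at a fold enrichment of at least 5, and 0 in both conditions with −log10 q at or above the water median, where members with H3K4me3 after water numbered 3. Gains of H3K4me3 numbered 2 at a fold enrichment of at least 5 (Aldh1l1 and Mbp), and with −log10 q at or above the water median the 1 gain was at Pdgfra and not at Mbp. Differences in H3K4me3 cover, crotonate minus water, turned at Cnp within the gene span alone (-154 bp, since the peak moved outwards) and at Pdgfra with lists of equal length (-1561 bp, since the weaker crotonate peak was dropped). Of the values for single genes or peaks, 33 others moved without turning, some of them to 0. With −log10 q at or above the water median, the difference in H3K4me3 cover was 0 bp at Aldh1l1 and Mbp. No H3K4me3 peak of these genes was left in that setting, in either condition. With a reciprocal overlap of 50%, 5 crotonate and 3 water H3K4me3 peaks had no counterpart. A window of 10 kb gave Gfap the H3K4me3 peak of its neighbours. Depth limits what the absence of a peak at Gfap, Aqp4 and S100b shows: no peak was called at these depths.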
